A study of Mus musculus with 4 samples.

Results

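The angiopoietins, the Tie receptors and the angiopoietin-like genes were described across 4 mouse expression arrays. The family was set by name as 9 genes. Of these, 8 (Angpt1, Angpt2, Angpt4, Tek, Tie1, Angptl1, Angptl4 and Angptl7) had at least 1 probe set annotated with their symbol alone, out of 18193 such genes on the arrays, and Angptl2 was unnamed here. The 8 genes had 14 probe sets, and the probe set with the highest mean signal over the 4 arrays represented each gene.

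Mice carried flank tumours grown from 293EBNA cells, a line derived from human embryonic kidney, to 2000 mm3. The tumour cells held either the empty Apex vector (group Apex, 2 arrays) or Apex carrying VEGFD, which encodes the lymphatic growth factor VEGF-D (group VEGFD, 2 arrays). Collecting lymphatic vessels that drained the tumour were marked by dye and dissected, and their endothelial cells were isolated by magnetic sorting, per the labels' protocols. The sources used here give no mouse strain, sex or age and do not say whether an array held 1 mouse or a pool, and the extraction protocol alone speaks of lymph node endothelium. The comparison asks how the endothelium of draining collecting vessels differs when the tumour makes VEGF-D.

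Angiopoietins are secreted ligands of the receptor tyrosine kinase TIE2, which Tek encodes. Angiopoietin 1 activates TIE2 and steadies vessels, while angiopoietin 2, which endothelium makes and stores, can block or activate it depending on context and is needed for the lymphatic vasculature to form properly. Angiopoietin 4 is a further TIE2 ligand. TIE1, the product of Tie1, binds no angiopoietin firmly by itself and modulates TIE2 at the endothelial surface. Angiopoietin-like proteins share the fold of the angiopoietins but do not bind TIE2, and the best known, ANGPTL4, inhibits lipoprotein lipase.

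The sequences before the RefSeq start sites of the receptor genes and of Angptl7 are shown because the receptors differed in which arrays they were high on and Angptl7 had the largest difference between groups among the members. The windows hold the 250 bases before the start, 5′ to 3′ on the gene's strand, from RefSeq on GRCm38.p6, and capitals mark GGAAG, the core that ETS factors bind, on either strand. The Tek window is chr4:94739039-94739288 on the plus strand, that of Tie1 is chr4:118489850-118490099 on the minus strand, and that of Angptl7 is chr4:148500463-148500712 on the minus strand.
Tek: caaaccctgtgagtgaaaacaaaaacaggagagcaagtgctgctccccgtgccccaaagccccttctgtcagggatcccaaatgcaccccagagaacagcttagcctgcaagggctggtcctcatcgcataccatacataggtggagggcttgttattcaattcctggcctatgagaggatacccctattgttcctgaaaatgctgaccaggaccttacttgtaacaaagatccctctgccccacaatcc
Tie1: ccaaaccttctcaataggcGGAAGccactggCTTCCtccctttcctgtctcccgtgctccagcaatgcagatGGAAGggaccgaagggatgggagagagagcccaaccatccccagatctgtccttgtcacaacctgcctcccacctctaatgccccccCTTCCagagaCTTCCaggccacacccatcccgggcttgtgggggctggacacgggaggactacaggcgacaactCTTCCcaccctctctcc
Angptl7: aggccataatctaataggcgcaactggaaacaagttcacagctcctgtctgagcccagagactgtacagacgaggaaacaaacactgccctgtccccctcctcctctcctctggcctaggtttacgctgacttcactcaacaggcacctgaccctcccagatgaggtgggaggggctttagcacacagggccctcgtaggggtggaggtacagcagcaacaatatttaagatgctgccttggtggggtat
GGAAG occurred 6 times in the Tie1 window and 0 times in those of Tek and Angptl7. At least 1 match was present in 64.1% of all 32851 windows of this length. The Angpt4 window held 4 matches, that of Angptl2 held 2 and that of Angptl1 held 0, and 6 of the 9 members were found in the promoter table. Of GTAAACA (bound by FOX factors), AGATAA (bound by GATA factors) and the TATA box TATAAA, searched on both strands, only TATAAA matched in a member's window, 1 time in Angpt4. These were present in 3.17%, 9.99% and 12.4% of all windows in the same order, and no match says only that these letters were not in the window.

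Several members lie inside larger genes. In the RefSeq gene table (GRCm38.p6), Angpt2 lies within the span of Mcph1, Angptl1 within Ralgps2, Angptl2 within Ralgps1 and Angptl7 within Mtor. Angptl1, Angptl2 and Angptl7 lie on the strand opposite to the surrounding gene, and the strand of Angpt2 was not analysed here. Mtor, which encodes a growth-control kinase, had signals of 280 and 237 in Apex and 307 and 255 in VEGFD, with a log2 change of 0.11 ± 0.25 (SE, limma fit, n = 2 and 2). Mcph1, a chromosome condensation gene, had 69.3 and 78.0 in Apex and 59.3 and 94.6 in VEGFD. The groups overlapped for both. Ralgps2, which encodes an activator of Ral GTPases, had 91.1 and 95.9 in Apex and 104 and 31.5 in VEGFD, also with overlap.

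All signals are linear intensities that the authors deposited, given in the order of replicates 1 and 2 of each group. Levels of different genes are not compared, because probe sets differ in how brightly they report. Genes were tested when the mean of log2(signal + 16) over the 4 arrays reached the median of all probe sets, which equals a signal of 25.3. The filter kept 6 of the 8 measured members (Angpt1, Angpt2, Angpt4, Tek, Angptl4 and Angptl7) and 11680 of 18193 genes. A change is the mean log2(signal + 16) of VEGFD less that of Apex, a scale that understates the change of dim genes. With 2 arrays a group, an exact permutation test cannot go below p = 0.333.

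The arrays differed from each other in markers of the labelled cell type. Of 14 pan-endothelial markers, 12 were highest in Apex replicate 2. Their summed signal was 4797 there, 868 in Apex replicate 1, and 1301 and 637 in VEGFD. Emcn was the largest part of the sum in Apex replicate 2 (2670), and Eng on the other 3 arrays. Pecam1 and Erg, defining endothelial genes, stayed at or below 3.25 on the other 3 arrays and reached 141 and 68.3 in Apex replicate 2. Eng (417 and 765 in Apex, 829 and 271 in VEGFD) and Kdr (78.8 and 75.7, 90.8 and 55.4) differed from this. Both were above the filter signal on every array and highest in VEGFD replicate 1. Of 10 lymphatic endothelial markers 9 were measured and 6 tested, with sums of 1327 and 2451 in Apex and 1611 and 2253 in VEGFD. Pdpn made most of this, with 963 and 1622 in Apex and 1237 and 1715 in VEGFD. Flt4, Nrp2 and Foxc2 were also above the filter signal on all 4 arrays, but the other measured lymphatic markers were not. Lyve1 (151) and Mmrn1 (38.9) were above it in Apex replicate 2 alone. Sox18 was above it in Apex replicate 2 and VEGFD replicate 1, and Reln in both VEGFD arrays. The lymphatic regulator Prox1 was at most 11.6. The 10 fibroblast markers summed to between 19948 and 23607 on every array, carried by bright collagen genes and Mfap5, but members of that list differed in direction. In bulk RNA, fewer cells of a type and less RNA per cell cannot be told apart.

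Taking the family as a set, none of the 6 tested members passed the limma test over all genes at an adjusted p of 0.05, and the smallest adjusted p was 0.518, for Angptl7. The background was 0% of 11680 genes. At an unadjusted p under 0.05 there were 2 members, against 5.7% of all tested genes. Angpt1 and Angptl7 were at least 2-fold lower in VEGFD without overlap between the groups, and 0 members were 2-fold higher. Among all tested genes 3.82% were 2-fold apart in that way, 2.76% lower and 1.06% higher. In all, 5 of the 6 had a negative log2 change, where 53.7% of tested genes did, and the median was -0.60 against -0.03 for all tested genes.

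**Figure D1:**
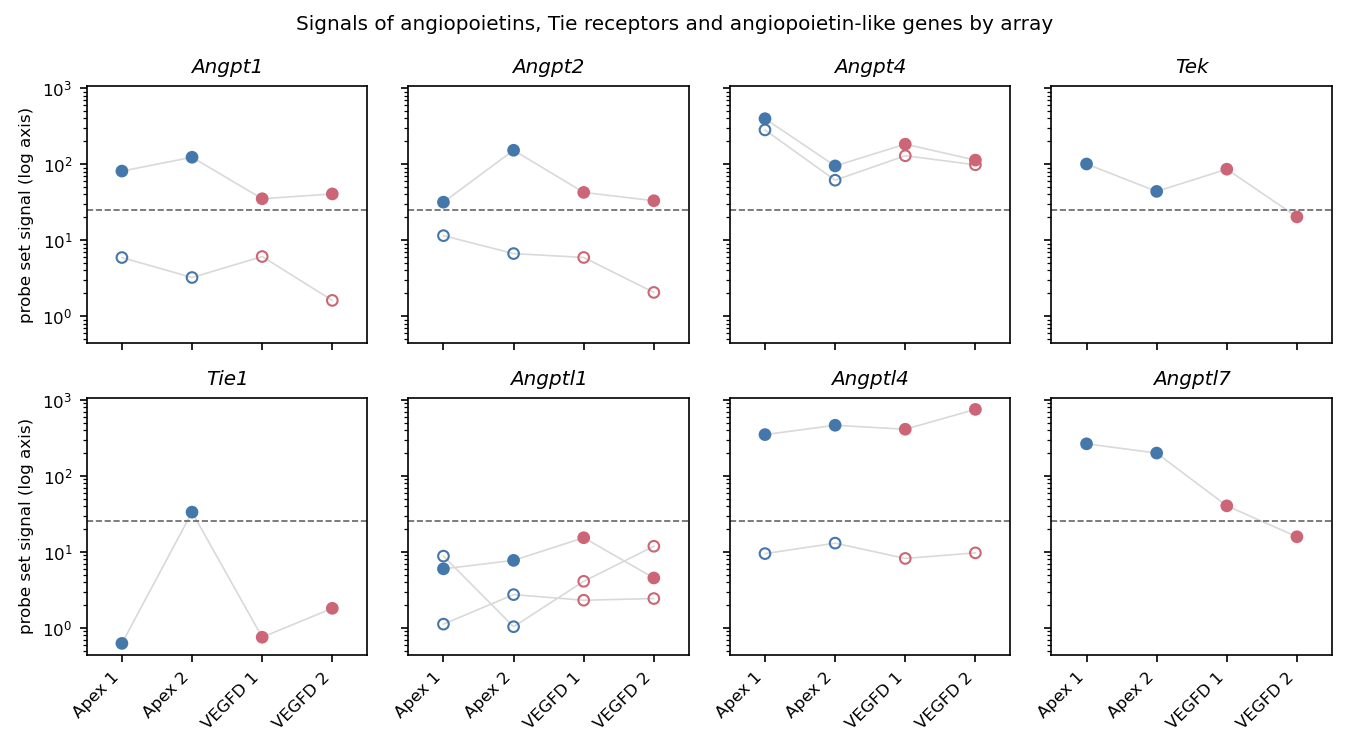
Signal of every probe set of the 8 measured members (log axis) on the 4 arrays, blue for Apex and red for VEGFD. Filled points are the probe set that represents the gene, open points its other probe sets, grey lines join a probe set's values and carry no order, and the dashed line is the filter signal of 25.3. Angptl7 and Angpt1 separate the groups, while Tie1 stands above the line in Apex replicate 2 alone.

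Tek, the angiopoietin receptor gene, was spread as widely within the groups as between them. Its signals were 101 and 43.9 in Apex and 86.1 and 20.3 in VEGFD. Replicate 1 was the brighter array in each group, and the groups overlapped. The log2 change was -0.46 ± 0.60 (SE, n = 2 and 2), with a 95% interval from -1.96 to 1.05 and a limma adjusted p of 0.885. Replicates differed by 0.96 on the log2 scale in Apex and by 1.49 in VEGFD, gaps that 5.37% and 5.05% of tested genes matched or exceeded. Leaving out Apex replicate 1 gave 0.02 and leaving out VEGFD replicate 2 gave 0.29, while leaving out VEGFD replicate 1 gave -1.20 and Apex replicate 2 gave -0.94. A pseudocount of 64 gave -0.25.

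Tie1, which encodes the partner receptor, was measured on a single array above the filter signal. Its signals were 0.626 and 33.4 in Apex and 0.755 and 1.81 in VEGFD, so it was not tested. The bright array was Apex replicate 2, the array with the highest pan-endothelial sum. The receptor genes therefore had different array profiles, since Tek was brighter in Apex replicate 1 than in Apex replicate 2. The part of endothelial content in these signals was not tested.

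**Figure D2:**
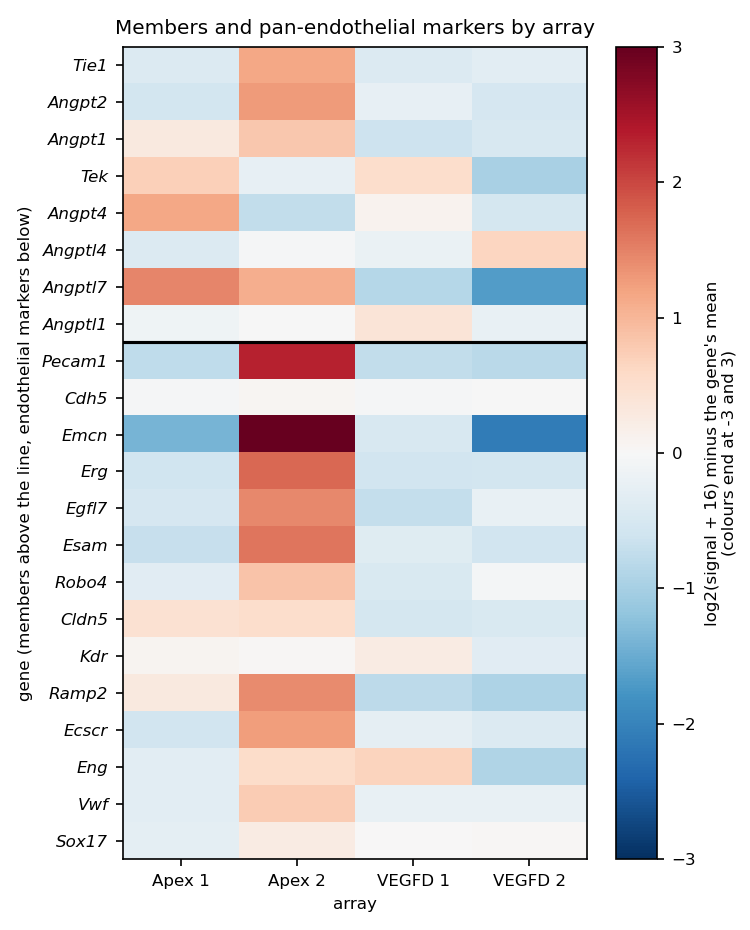
Colour shows log2(signal + 16) minus the gene's own mean over the 4 arrays, with the 8 measured members above the line and 14 pan-endothelial markers below it. Tie1 and Angpt2 share the red Apex replicate 2 column with Pecam1, Emcn, Erg and most other markers, and Tek, Angpt4 and Angptl7 are highest in Apex replicate 1.

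Angpt1, the gene of the activating ligand, was lower in both VEGFD arrays. Its signals were 81.3 and 124 in Apex and 35.2 and 40.7 in VEGFD, so the groups did not overlap. The log2 change was -1.11 ± 0.30 (SE, n = 2 and 2), a 2.16-fold difference on this scale with a 95% interval from -1.87 to -0.36. It did not pass the limma test over all genes (adjusted p = 0.825, unadjusted p = 0.0120). The difference between replicates was 0.52 in Apex and 0.15 in VEGFD on the same scale. The other Angpt1 probe set lay between 1.62 and 6.11 on every array and showed no such separation. Median-centred arrays gave -0.99, a pseudocount of 64 gave -0.70, and leaving out Apex replicate 2 gave -0.85, so in each of these Angpt1 was less than 2-fold apart.

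Angpt2, the gene of the ligand that endothelium itself makes, was high on a single array. Its signals were 31.7 and 153 in Apex and 42.6 and 33.1 in VEGFD. Both VEGFD arrays lay between the Apex arrays, just above Apex replicate 1. The log2 change was -0.74 ± 0.62 (SE, n = 2 and 2; 95% interval -2.29 to 0.81; limma adjusted p = 0.833). The gap between the Apex replicates was 1.82 on the log2 scale, a size that 1.002% of tested genes reached. Without Apex replicate 2 the change was 0.17, and without Apex replicate 1 it was -1.65. The second Angpt2 probe set stayed below the filter signal, between 2.06 and 11.5, and did not show the high array.

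Set within each array, the balance of the ligand genes overlapped between the groups. The log2 ratio of Angpt2 to Angpt1, relative to the mean of the Apex arrays, was -0.65 and 0.65 in Apex and 0.57 and 0.17 in VEGFD. Both VEGFD values fell inside the range of the Apex arrays, and the change of 0.37 was smaller than the gap between them.

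Angpt4, which encodes the further TIE2 ligand, had the reverse pattern of Angpt2 among the Apex arrays. Its signals were 398 and 95.03 in Apex and 184 and 113 in VEGFD. The VEGFD arrays again lay between the Apex arrays. The other Angpt4 probe set gave 283 and 61.6 in Apex and 129 and 98.4 in VEGFD, the same order of arrays. The log2 change was -0.42 ± 0.65 (SE, n = 2 and 2; 95% interval -2.05 to 1.22; limma adjusted p = 0.905). The Apex replicates differed by 1.90 on the log2 scale, which 0.899% of tested genes matched or exceeded. With an Apex array left out the change was 0.53 (replicate 1) or -1.36 (replicate 2), and with a VEGFD array left out it was -0.73 (replicate 1) or -0.10 (replicate 2).

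Angptl7, which encodes a secreted protein known from the cornea and trabecular meshwork of the eye, differed most of the members. Its signals were 265 and 200 in Apex and 40.4 and 15.8 in VEGFD. Both VEGFD arrays lay well below both Apex arrays, and VEGFD replicate 2 lay under the filter signal. The log2 change was -2.54 ± 0.37 (SE, n = 2 and 2), a 5.81-fold difference on this scale with a 95% interval from -3.46 to -1.61. By unadjusted p (0.000726) it was number 12 of the 11680 tested genes, and a decrease of this size or more was seen in 0.197% of them. It did not pass over all genes in the limma fit (adjusted p = 0.518). Without VEGFD replicate 1 the change was -2.95 and passed, at an adjusted p of 0.00921, but 390 genes passed in that fit, where no spread between VEGFD arrays entered. Over all its alternatives the adjusted p ran from 0.00921 to 0.9996, and the change was -1.69 with a pseudocount of 64. Angptl7 has a single probe set here, so no other probe set could check it. Marker sums that were also lower in both VEGFD arrays were those of adipocytes, whose values stand beside those of the lipase genes, and of keratinocytes. The 6 keratinocyte markers summed to 549 and 754 in Apex and 507 and 141 in VEGFD, and 4 of them were highest in an Apex array. Perp was the largest part of that sum, with 304 and 470 in Apex and 410 and 80.9 in VEGFD, so it overlapped between the groups. Krt14 was at or below 14.3 on every array. Among fibroblast markers, Dpt, the dermatopontin gene, had 2725 and 2407 in Apex and 204 and 168 in VEGFD. Pi16 had 55.9 and 11.2 against 5.17 and 3.40. Mfap5 went the other way, with 4144 and 2366 in Apex and 5741 and 5476 in VEGFD, as did the dim Lum (12.4 and 15.2 against 25.5 and 22.7). Of the 8 tested fibroblast markers 5 were higher in VEGFD and 3 lower, and the list's sum did not separate the groups. The part of these markers in the Angptl7 and Angpt1 signals was not tested.

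Angptl4, the lipase inhibitor gene that fasting, PPAR activators and low oxygen induce, was the only tested member with a positive change. Its signals were 350 and 464 in Apex and 411 and 751 in VEGFD. VEGFD replicate 2 was the brightest array, and VEGFD replicate 1 lay between the Apex arrays. The log2 change was 0.45 ± 0.36 (SE, n = 2 and 2; 95% interval -0.44 to 1.34; limma adjusted p = 0.833). Leaving out VEGFD replicate 2 gave 0.03, leaving out VEGFD replicate 1 gave 0.87, leaving out Apex replicate 1 gave 0.25, and averaging the probe sets gave 0.16. The summed signal of the 10 smooth muscle and pericyte markers was also highest in VEGFD replicate 2 (18617, against 7753 and 9110 in Apex and 9476 in VEGFD replicate 1). Acta2 (8802) and Tagln (5553) were the largest parts of it there. Of the 10, 6 were highest in VEGFD replicate 2, with the defining marker Myh11 at or below 19.2 on every array. The other 4 were highest in Apex replicate 2. Among these, Pdgfrb (2978 and 3479 in Apex, 2123 and 1268 in VEGFD), Notch3 and Rgs5 were lowest in VEGFD replicate 2. The part of these markers in the Angptl4 signal was not tested. The other probe set was dim, between 8.22 and 13.1 on every array.

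Angptl1, an angiopoietin-like gene of vascular tissue, was dim throughout. Its 3 probe sets ranged from 1.04 to 15.4 over the 4 arrays, all under the filter signal. Its representative had 5.997 and 7.74 in Apex and 15.4 and 4.55 in VEGFD, and the probe sets did not order the arrays alike.

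**Figure D3:**
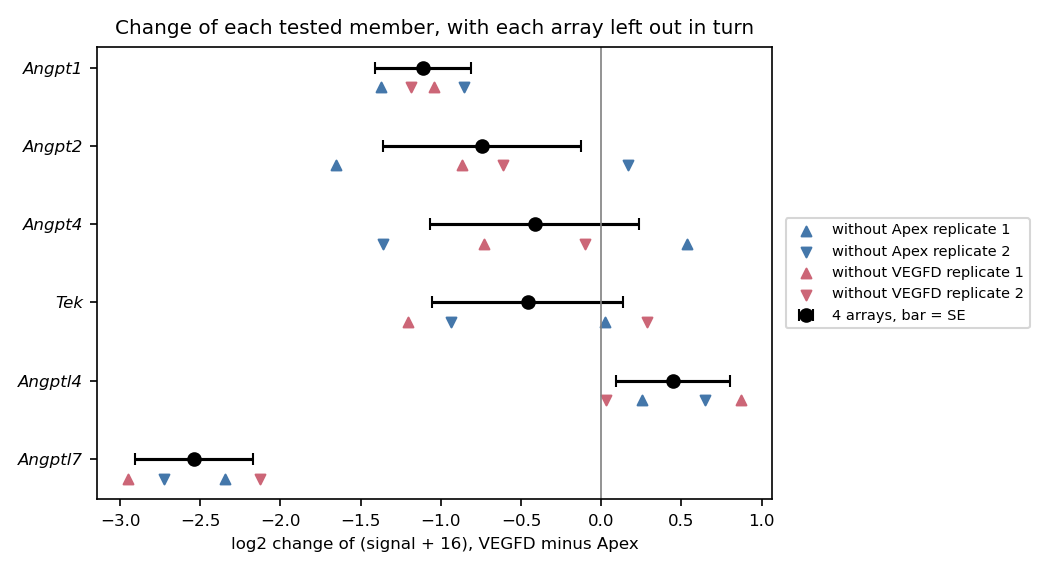
Log2 change of (signal + 16), VEGFD minus Apex, of the 6 tested members on all 4 arrays (black, bar = SE) and with each array left out (coloured triangles). Angptl7 and Angpt1 stay below 0 in every case, while Angpt2, Angpt4 and Tek cross 0 with 1 array left out.

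Genes with the most similar array profiles were found by the distance between log2 values centred on each gene's mean, over 4 arrays, as a description. Closest to Angptl7 were Cst6 (distance 0.22), which encodes a protease inhibitor, Ogn (0.33), which encodes the matrix proteoglycan osteoglycin, and Gas1 (0.35), a growth arrest gene. Within a distance of 1 lay 26 genes for Angptl7 and 6179 for Angptl4. The distance was not scaled to a gene's range, which was 3.14 for Angptl7 and 1.07 for Angptl4 on the log2 scale. A gene that hardly varies can therefore count for Angptl4, and these counts do not say how common either profile is. Closest to Angpt2 was Ecscr (0.11), one of the pan-endothelial markers, with signals of 85.3 and 340 in Apex and 107 and 97.1 in VEGFD. Rasgrp3 (0.22), which encodes an activator of Ras-type GTPases, and Krt18 (0.24), a keratin gene, followed.

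Tek lay closest to Trib3 (0.10), a stress-induced pseudokinase gene, then Prrg3 (0.10) and Enho (0.12). Angpt1 lay closest to Cdk18 (0.14), Tnfrsf1b (0.16), a receptor gene for tumour necrosis factor, and Irs1 (0.16), which encodes an insulin receptor substrate. For Angpt4 these were Duoxa1 (0.26), the interferon-induced Ifit3 (0.39) and Rgs4 (0.43), and for Angptl4 Aig1 (0.03), Prim2 (0.04) and Nradd (0.06). Among the members themselves, the closest pair was Angpt4 and Tek (0.90), followed by Angpt1 and Angpt2 (1.03), and the farthest was Angptl4 and Angptl7 (3.26).

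Partners of the Tie receptors and their signalling genes split evenly by direction. Of 22 listed genes 18 were tested, 9 with a positive and 9 with a negative change, and 0 passed in either direction (limma, smallest adjusted p = 0.773). The median was 0.02, and 7 had no overlap between groups, against 38.4% of all tested genes. None was 2-fold apart without overlap by its representative probe set on arrays that were not centred. Itgb1, which encodes the integrin beta 1 chain that angiopoietins can also engage, had signals of 1968 and 1592 in Apex and 3323 and 3485 in VEGFD. Its VEGFD arrays were both higher, with a log2 change of 0.94 ± 0.22 (SE, n = 2 and 2). Median-centred arrays gave 1.06 and averaged probe sets 0.73. Another bright Itgb1 probe set had 1663 and 934 in Apex and 3438 and 3824 in VEGFD, a change of 1.53. Itga5, the alpha 5 partner chain, had 267 and 350 in Apex and 285 and 1751 in VEGFD, and its change was 1.18 ± 0.81. Leaving out VEGFD replicate 2 gave -0.095, and leaving out VEGFD replicate 1 gave 2.46, which passed in limma (adjusted p = 0.00921, in the fit with 390 passing genes).

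Foxo1 encodes a transcription factor that TIE2 signalling restrains and that drives Angpt2 in endothelium. It had signals of 389 and 333 in Apex and 280 and 129 in VEGFD, with a log2 change of -0.86 ± 0.39 (SE, n = 2 and 2; limma adjusted p = 0.825). By this representative probe set the groups did not overlap. Another Foxo1 probe set had 182 and 169 in Apex and 179 and 70.4 in VEGFD, with overlap. A further one had 183 and 212.5 in Apex and 130 and 62.6 in VEGFD, without overlap. Leaving out VEGFD replicate 2 gave -0.35, leaving out VEGFD replicate 1 gave -1.37, and averaging the probe sets gave -0.57. Svep1, whose matrix protein binds TIE1 and is needed for lymphatic vessel remodelling, had 353 and 159 in Apex and 464 and 386 in VEGFD. Its change of 0.79 ± 0.40 became 0.25 when Apex replicate 2 was left out and 1.32 when Apex replicate 1 was. Ptprb, which encodes the phosphatase VE-PTP that dampens TIE2, had 19.2 and 60.5 in Apex and 38.5 and 24.97 in VEGFD. Its change of -0.13 ± 0.45 became 0.43 when Apex replicate 2 was left out, -0.69 when Apex replicate 1 was and 0.07 when VEGFD replicate 2 was. A dimmer probe set had 13.4 and 16.8 against 43.8 and 33.7.

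Genes around the lipase that ANGPTL4 inhibits were listed next. Of 16 listed genes 11 were tested, 2 with a positive and 9 with a negative change, 0 passed in either direction (limma, smallest adjusted p = 0.825), and the median was -0.48. Among all tested genes 53.7% had a negative change, or 40.7% once arrays were median-centred, and the median was -0.03. The groups did not overlap for 6 of the 11, against 38.4% of all tested genes. Lpl, which encodes lipoprotein lipase, had signals of 4309 and 3532 in Apex and 2639 and 1893 in VEGFD, a log2 change of -0.80 ± 0.26 (SE, n = 2 and 2). Its other probe set had 1448 and 687 in Apex and 762 and 542 in VEGFD, with overlap and a change of -0.62. Gpihbp1, whose protein carries the lipase to the capillary lumen, had 60.8 and 55.3 in Apex and 40.7 and 35.6 in VEGFD, a change of -0.45 ± 0.26 that was -0.26 with a pseudocount of 64. Pparg, the fat cell transcription factor gene, had 199 and 281 in Apex and 50.5 and 157 in VEGFD. It was the only gene of the list that was 2-fold apart without overlap, at -1.24 ± 0.50. Leaving out VEGFD replicate 1 gave -0.55 and leaving out VEGFD replicate 2 gave -1.93.

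The 5 measured of 7 listed adipocyte markers were each highest in an Apex array. Their signals summed to 1849 and 4239 in Apex and to 1118 and 1080 in VEGFD, nearly all of it from Fabp4, a fatty acid carrier gene, with 1741 and 4073 in Apex and 1098 and 1047 in VEGFD. Adipoq, the adiponectin gene, had 38.3 and 145 in Apex and 12.7 and 12.5 in VEGFD. Fabp4 and Adipoq were the 2 tested, neither passed in limma, and Cidec and Lep were at or below 15.8 on every array. Their part in the changes of the lipase genes was not tested.

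**Figure D4:**
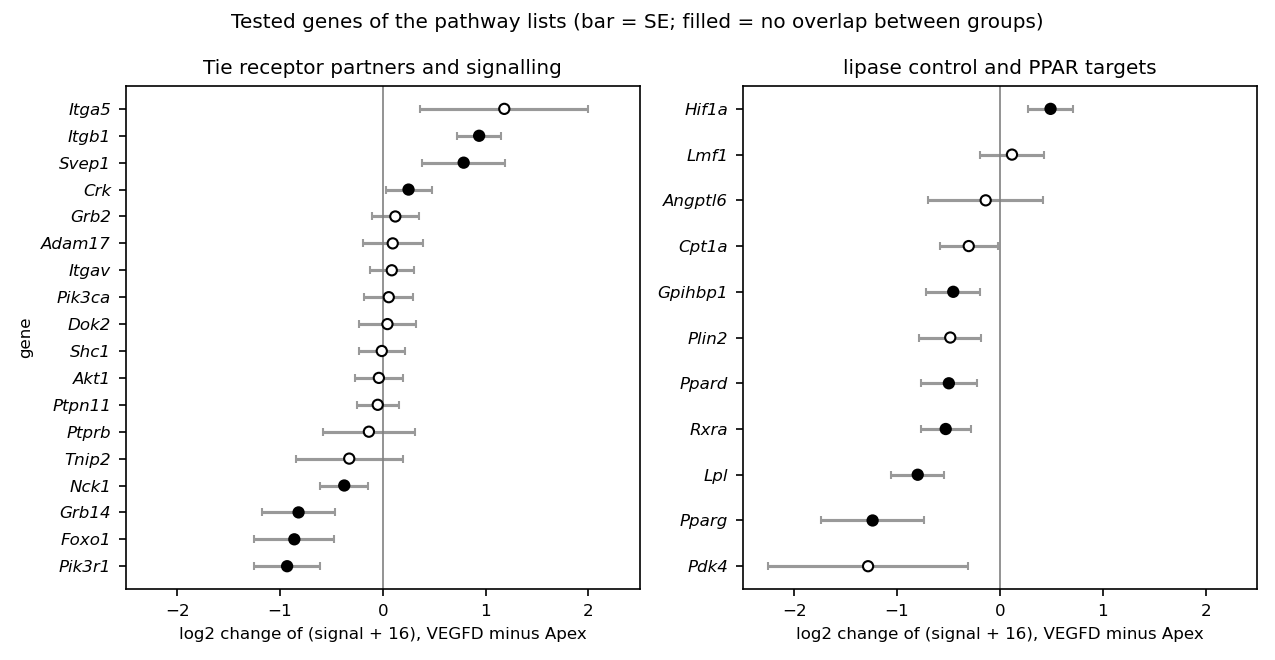
Log2 change of (signal + 16), VEGFD minus Apex, of the tested genes of the list of Tie receptor partners and signalling (left, 18 genes) and of the list of lipase control and PPAR targets (right, 11 genes). Bars are the SE of the limma fit and filled points mark genes without overlap between the groups, which number 7 on the left and 6 on the right.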

How the data were processed

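RNA of 4 samples, 2 Apex and 2 VEGFD, was labelled with biotin and hybridised to Affymetrix arrays, per the labels' protocols. The authors deposited 1 linear intensity per probe set for 45101 probe sets, and the algorithm behind it is not stated in the sources used here. With 2% of probe sets trimmed at each end, the deposited intensities averaged 150 on every array. No detection calls were used, so low signals have no stated limit against background, and the number of arrays limits the precision.

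Probe sets with 1 gene symbol in the platform annotation (34945) were used, and 932 with several symbols, 9160 unnamed and 64 control probe sets named no gene. Values were log2(signal + 16), each gene was represented by its brightest probe set, and 11680 of 18193 genes passed the filter. The group comparison used limma 3.58.1 under R 4.3.3 (lmFit, eBayes with an intensity trend, two-sided, Benjamini-Hochberg over all tested genes, threshold 0.05). SE and 95% intervals come from that fit. The procedure was tested on simulated data. Alternatives covered scaling, pseudocounts of 1 and 64, the filter, averaged probe sets, each array left out, the replicate number as a block, and no trend.

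The members, gene lists and tests were chosen with earlier results of these data known. All members were named, with 5 fixed pathway genes. From each list the 3 genes with the largest change among those 2-fold apart without overlap were added; if none was, the 2 that changed most were. The 3 most alike genes were named for members spanning at least 1 on the log2 scale. Genes inside which members lie, and markers given by value, were named outside this rule, after their values were seen. Promoter windows came from RefSeq by symbol.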

Additional observations from a re-analysis of the deposited data

How the results depend on the processing

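Of 173 values of named genes under the alternatives, 163 kept their direction and side of the threshold, 7 reversed and 3 came to pass. The reversed values, all with 1 array left out, were 0.17 for Angpt2 (range over the 4 arrays left out, -1.65 to 0.17), 0.53 for Angpt4 (-1.36 to 0.53), 0.02 and 0.29 for Tek (-1.20 to 0.29), 0.43 and 0.07 for Ptprb (-0.69 to 0.43) and -0.095 for Itga5 (-0.095 to 2.46), and the passing ones were Angptl7, Itga5 and Foxo1 without VEGFD replicate 1. With 1 array left out, 0 to 390 genes passed (4 without VEGFD replicate 2), with 0 to 1 members among them. The lone array is then assumed to vary like the other group. Genes 2-fold apart without overlap numbered 446, and 436 to 1329 with 1 array left out, a condition easier to meet with fewer arrays, with 2 to 3 members among them, not always the same ones (without Apex replicate 2 they were Angptl7 and Angpt4, not Angpt1). They numbered 225 with a pseudocount of 64 and 225 with the filter at the 75th percentile, where 2 members were tested and 0 were 2-fold apart. Members 2-fold apart numbered 1 with arrays centred on their medians, 1 with a pseudocount of 64 and 1 with averaged probe sets, where 4 members were tested. Centring moved the median change of all genes from -0.03 to 0.09 and the share of negative changes from 53.7% to 40.7%. Of the 446 genes 322 were lower, against 236 of 424 after centring. With the replicate number as a block, 6 genes passed and 0 were members. Deviations of same-numbered arrays correlated at 0.20 across genes, with 2 pairs, and the labels do not say that numbers pair arrays. Without a filter, 8 members were tested and 0 passed.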
